A study of Mus musculus with 6 samples.

Results

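The hepatic route from tryptophan to kynurenine and on to NAD was followed through 10 genes in orthotopic HCA-1 tumors, HCA-1 being a murine hepatocellular carcinoma (HCC) line. The genes were Tdo2, Ido1, Ido2, Afmid, Kmo, Kynu, Haao, Acmsd, Qprt and Aadat. They were picked by symbol from a table of 34685 genes and matched by identifier to raw counts of 55536 genes, and all 10 passed the filter on low counts. In each of the 6 male C3H mice (C3H/HeNCrNarl in the study's methods), aged 6 to 8 weeks, 1000000 HCA-1 cells had been injected under the liver capsule. The 3 control tumors (libraries 5, 6 and 7) were untreated, so no group received the empty carrier. The 3 treated tumors (libraries 1, 2 and 5) came from mice given GOx-DOX-LGP, a lipid, gelatin and protamine nanogel that holds glucose oxidase (GOx) and doxorubicin (DOX), by vein on days 18, 19 and 20. The labels nevertheless put the tumor RNA at day 17, after 3 h of circulation. The study's supplement, in its RT-qPCR methods, places tumor harvest on the day after the last of these doses, and gives no day for the sequenced tumors. All 6 tumors grew in host liver from 1 cell line, and the bulk RNA of a tumor piece can hold host liver as well as tumor and immune cells.

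Most dietary tryptophan that is not built into protein is broken down along this route, and in a healthy animal the liver does most of the work. The first and rate-limiting step opens the indole ring. In hepatocytes it is carried out by tryptophan 2,3-dioxygenase, the product of Tdo2, and elsewhere by indoleamine 2,3-dioxygenase, the product of Ido1, a gene that interferon gamma switches on in dendritic cells, macrophages, endothelium and many tumors. Kynurenine made by either enzyme, together with local loss of tryptophan, is known to restrain T cells, which is why both enzymes have been studied as drug targets in cancer. The later enzymes lead through 3-hydroxykynurenine and quinolinate to NAD, or turn aside to kynurenic acid and to full oxidation.

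Control tumors 6 and 7 stood apart from the other 4 libraries. Library totals lay between 15529940 and 18401178 counts. The summed level of 15 hepatocyte markers, in counts per 1000000 scaled with TMM factors (CPM), was 139100 in control tumor 6 and 221400 in control tumor 7, against 766 in control tumor 5 and 1625 to 4010 in the treated tumors. None of the 15 markers was at 0 in any library, and in all 15 control tumor 5 had the lowest value of the 6. The main results are therefore given beside their values without control tumor 5 and without control tumors 6 and 7 together, the latter chosen after the data had been seen. In bulk RNA, fewer cells of a type and less RNA per cell cannot be told apart.

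Promoter sequence of Haao and Aadat is shown because it holds, in capitals, letters read by factors of hepatocytes. RefSeq promoter windows of 250 bases before the start (build GRCm38.p6) were found for 7 of the 10 genes and not for Ido1, Ido2 and Kynu. The HNF1 core GTTAAT, read on both strands, occurred in 6.43% of 32851 promoters and, among the 7 genes, in that of Haao, at position -41 from the start (chr17:83846813-83847040, minus strand). The HNF4 site CAAAGTCCA, read likewise, occurred in 0.384% of promoters and, among the 7 genes, in that of Aadat, at position -72 (chr8:60506042-60506070, plus strand). 
Haao: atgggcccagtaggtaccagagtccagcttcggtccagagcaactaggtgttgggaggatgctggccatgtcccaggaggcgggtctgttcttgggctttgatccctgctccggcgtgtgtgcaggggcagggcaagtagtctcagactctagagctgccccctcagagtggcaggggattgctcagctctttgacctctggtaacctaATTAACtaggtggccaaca
Aadat: cctctgtggaTGGACTTTGtcccttctgc
The Tdo2 window held TATAAA, found in 12.4% of promoters, at position -229, and GCGTG, the core that the aryl hydrocarbon receptor reads, found in 28.2%, at position -194. Of the other motifs read on both strands, TGTTCT of the glucocorticoid receptor (16.1% of promoters) was found in Haao at position -164, where GCGTG also occurred at -137, and TTCNNNGAA (7.02%) was found in Qprt at -19. TTGCNNAA of C/EBP factors (9.56%) and the core of the interferon-stimulated response element (2.98%) were found in none of the 7 windows, and those of Acmsd, Kmo and Afmid held none of the 8 motifs. Positions count from the RefSeq start. Both stretches shown lie inside the GENCODE spans of their genes, 83831156 to 83847963 for Haao and 60505932 to 60545677 for Aadat. Of the Haao window 228 bases are shown, without those in an exon of its coding transcript. These matches describe letters only.

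The mix of first-step transcripts differed sharply between libraries, but not along the line between control and treated mice. Tdo2 (chromosome 3, 81957090 to 81976202, minus strand, GRCm38) stood at 6.36 CPM in control tumor 5, 1496 in control tumor 6 and 2542 in control tumor 7. In the tumors given GOx-DOX-LGP it stood at 41.3, 10.1 and 16.3 CPM for libraries 1, 2 and 5. Thus 2 controls lay far above every treated tumor and the third lay below all of them. The fitted log2 fold change of GOx-DOX-LGP over control was -5.90 ± 1.91 (SE, n = 3 per group), which did not pass edgeR's quasi-likelihood test (adjusted p = 0.247). It was -6.45 without control tumor 5 (adjusted p = 0.000317 in the same edgeR test), and 1.84 ± 0.81 (SE) without control tumors 6 and 7.

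Ido1 (chromosome 8, 24584136 to 24597009, minus strand) ran the other way across the same libraries. It stood at 9.65 CPM in control tumor 5, 0.933 in control tumor 6 (11 counts) and 0.108 in control tumor 7, where a single count was found. In treated tumors 1, 2 and 5 it stood at 10.6, 7.69 and 13.6 CPM. Control tumor 5 fell inside the treated range, and control tumors 6 and 7 fell below it. The group means were 3.56 ± 5.29 CPM in control and 10.6 ± 2.94 CPM in treated tumors (SD, n = 3 each). The fitted log2 fold change was 1.53 ± 1.22 (SE), with an adjusted p of 0.503 in edgeR's quasi-likelihood test. Without control tumor 5 it was 4.28 (edgeR adjusted p = 0.00201), and without control tumors 6 and 7 it was 0.15.

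Ido2, the neighbor of Ido1 on chromosome 8 (24531892 to 24576333, minus strand), encodes a related dioxygenase of weaker activity. Its levels were 4.65, 78.1 and 129 CPM in control tumors 5, 6 and 7 and 4.89, 3.92 and 8.07 CPM in treated tumors 1, 2 and 5. Despite its place beside Ido1, it was high in the libraries where Tdo2 was high and Ido1 low. Its fitted log2 fold change was -3.65 ± 1.11 (SE; edgeR adjusted p = 0.247), and 0.29 without control tumors 6 and 7. No stretch of 50 bases in Tdo2, Ido1 or Ido2 transcripts occurred in another gene.

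**Figure D1:**
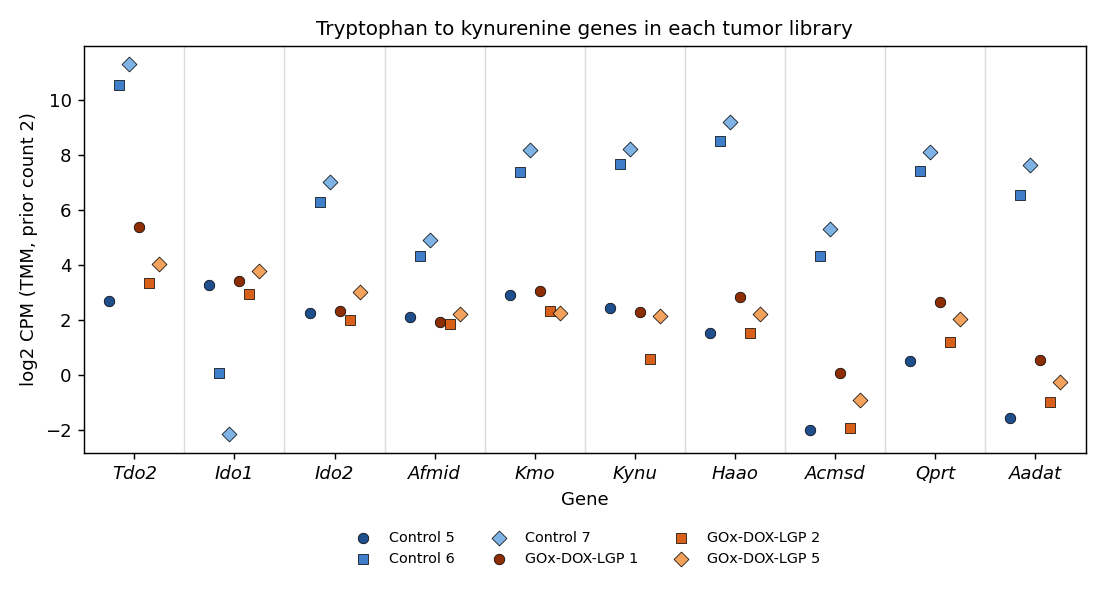
Level of each of the 10 genes (horizontal axis) in each of the 6 tumor libraries, as log2 CPM with TMM scaling and a prior count of 2 (vertical axis); blue symbols are control tumors and orange symbols tumors given GOx-DOX-LGP. For 9 genes control tumors 6 and 7 lie above the other 4 libraries, and for Ido1 they lie below them.

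Set against each other, the 3 first-step genes gave each library a composition that does not depend on scaling. Ido1 made up 46.7% of the Tdo2, Ido1 and Ido2 counts in control tumor 5 (95% Wilson interval 42.3 to 51.2%, of 471 counts). In control tumor 6 the Ido1 share was 0.0592% (0.0331 to 0.106%, of 18576 counts) and in control tumor 7 it was 0.00403% (0.000711 to 0.0228%, of 24825 counts). The intervals cover counting error only. Among treated tumors the Ido1 share was 18.7% (16.6 to 21.1%, of 1150 counts) in library 1, 35.4% (31.1 to 39.9%, of 444 counts) in library 2 and 35.8% (32.4 to 39.4%, of 729 counts) in library 5. The Ido1 share was thus highest in an untreated tumor. Tdo2 made up 94.98% and 95.2% of these counts in control tumors 6 and 7, 30.8% in control tumor 5, and 72.7, 46.6 and 42.9% in treated tumors 1, 2 and 5. Per kilobase of exon, a scale on which levels of different genes can be compared, Ido1 stood above Tdo2 in control tumor 5, at 5.29 against 1.64 CPM per kilobase. The same order held in treated tumor 2, at 4.21 against 2.61, and in treated tumor 5, at 7.44 against 4.196. In treated tumor 1 Tdo2 stood above Ido1, at 10.7 against 5.82 CPM per kilobase, and in control tumor 6 it stood at 386 against 0.511.

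**Figure D2:**
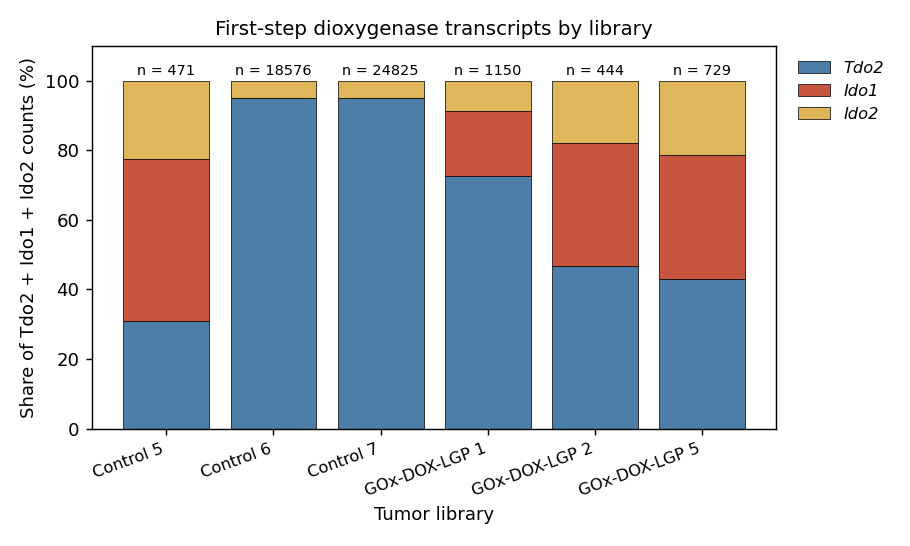
Share of the summed Tdo2, Ido1 and Ido2 counts (vertical axis, percent) taken by each gene in each tumor library (horizontal axis), with the summed count written above each bar. Tdo2 fills 94.98% and 95.2% of the bars of control tumors 6 and 7, while Ido1 takes 46.7% in control tumor 5 and 18.7 to 35.8% in the treated tumors.

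The log2 ratio of Tdo2 to Ido1 counts, with 0.5 added to each, was -0.60, 10.58 and 13.94 in control tumors 5, 6 and 7 and 1.96, 0.40 and 0.26 in treated tumors 1, 2 and 5. Its mean was 7.98 ± 7.61 in control and 0.87 ± 0.94 in treated tumors (SD, n = 3 each). The difference of -7.10 had p = 0.4 in a two-sided exact permutation test, which cannot go below 0.1 with 3 libraries against 3. Without control tumors 6 and 7 the difference was 1.47, of the opposite sign.

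The genes for the steps from formylkynurenine to quinolinate were highest in control tumors 6 and 7, as was Tdo2 and unlike Ido1. Among the remaining libraries Tdo2 was lowest in control tumor 5, whereas none of these genes was. Afmid, which encodes the formamidase that frees kynurenine, had the narrowest range, with 4.17, 20.0 and 30.5 CPM in control tumors 5, 6 and 7 and 3.66, 3.53 and 4.58 CPM in treated tumors 1, 2 and 5. Its value is uncertain, since 1649 exonic bases (chromosome 11, 117825924 to 117839908) overlap Gm20708 on the same strand or Tk1 on the opposite one, and 40.3% of its 50-base stretches also occur in another gene. Kmo, the kynurenine hydroxylase found in liver and also in macrophages and microglia, stood at 7.502, 166 and 290.0 CPM in the controls and 8.30, 4.90 and 4.63 CPM in the treated tumors. Control tumor 5 lay within the treated range for both genes.

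Kynu, which encodes kynureninase, was the 1 gene of the 10 whose groups did not overlap. It stood at 5.31, 205 and 301 CPM in control tumors 5, 6 and 7 and at 4.75, 1.37 and 4.27 CPM in treated tumors 1, 2 and 5. Control tumor 5 exceeded the highest treated tumor only narrowly, and the exact permutation test gave its smallest possible p of 0.1. Over all 15374 genes tested, groups did not overlap for 17.2%, and for 8.31% with the treated group lower, so 1 of 10 is near the background. The fitted log2 fold change of Kynu was -5.62 ± 1.46 (SE; edgeR adjusted p = 0.247), and -0.60 without control tumors 6 and 7. Haao, whose dioxygenase makes the precursor of quinolinate, stood at 2.76, 364 and 588 CPM in the controls and 7.12, 2.74 and 4.58 CPM in the treated tumors. It is the gene with the HNF1 letters shown above, and control tumor 5 lay at the low end of its treated range.

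At the branch points the 4 libraries low in hepatocyte markers held few counts, from 3 for Acmsd to 124 for Qprt. Qprt, which turns quinolinate into the NAD precursor nicotinate mononucleotide, stood at 1.32, 171 and 281 CPM in control tumors 5, 6 and 7 and 6.13, 2.16 and 3.95 CPM in treated tumors 1, 2 and 5. Acmsd encodes the decarboxylase that draws the pathway away from quinolinate, and it had 3, 237 and 372 counts in the controls and 19, 3 and 8 counts in the treated tumors. Aadat encodes an aminotransferase that makes kynurenic acid, and it stood at 0.219, 93.7 and 199 CPM in the controls and 1.34, 0.392 and 0.728 CPM in the treated tumors. For Qprt and Aadat, as for Tdo2, control tumor 5 lay below every treated tumor, and for Acmsd it shared the lowest count with treated tumor 2. A count of 3 corresponds to 0.132 to 0.323 CPM in these libraries, so Acmsd was at that floor in control tumor 5 and treated tumor 2. In Acmsd 94 exonic bases overlap 2900009J06Rik on the opposite strand, and whether counting used strand was not given in the sources used here.

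Across the 10 genes, 9 were fitted lower and Ido1 higher in treated tumors, while 48.9% of all genes tested were fitted lower. Their median log2 fold change was -5.25, against 0.02 over all 15374 genes. The fitted values ran from -2.21 ± 0.70 for Afmid to -6.89 ± 2.06 (SE) for Aadat, with -4.70 for Kmo, -6.04 for Haao, -5.30 for Acmsd and -5.21 for Qprt. No gene of the 10 and none of the 15374 (0%) passed edgeR's quasi-likelihood test at an adjusted p under 0.05. At an unadjusted p under 0.05 it marked 9 of the 10 genes, all but Ido1, and 2685 genes in all (17.5%, and 14.6% lower in treated tumors). DESeq2 called the same 9 genes, all lower, with adjusted p from 0.000493 for Kynu to 0.0300 for Afmid. It called 1739 genes in all (5.21% of the 33397 it tested, 4.87% lower). Those 33397 genes had not been filtered on low counts, so 5.21% is not the share among the 15374 genes. With sample quality weights in limma voom all 10 were called, 9 of them lower, among 9254 genes (60.2%, with 30.9% lower).

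The outcome of the edgeR test turned on control tumor 5. Without control tumor 5 all 10 genes were called by edgeR, Ido1 higher and 9 lower, beside 47.7% of all genes (25.5% lower). Leaving out control tumors 6 and 7, with the lone control assumed to vary like the treated tumors, gave no calls (0%, with 921 genes at an unadjusted p under 0.05) and a fitted median of 0.55, with 3 of the 10 genes lower. In that comparison Tdo2, Acmsd, Qprt and Aadat had log2 fold changes of 1.64 to 1.90, Haao had 0.81, and Ido1, Ido2, Afmid, Kmo and Kynu lay between -0.60 and 0.29.

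**Figure D3:**
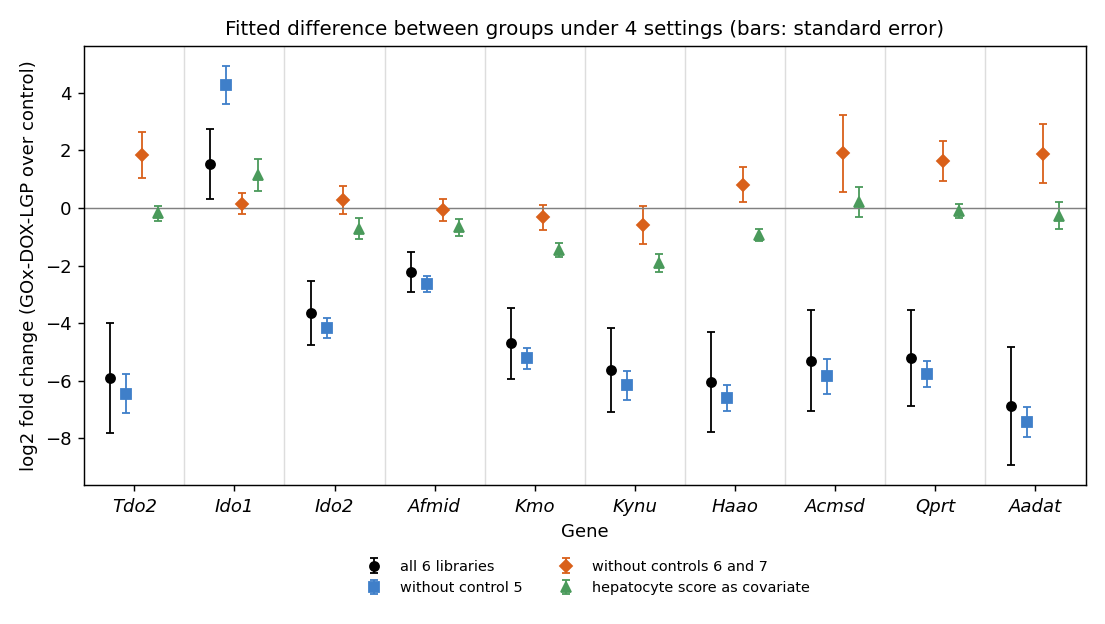
Fitted log2 fold change of GOx-DOX-LGP over control (vertical axis, bars are the standard error) for each of the 10 genes (horizontal axis) with all 6 libraries, without control tumor 5, without control tumors 6 and 7, and with mean hepatocyte marker level as a covariate. Tdo2 moves from -5.90 with all libraries to 1.84 without control tumors 6 and 7 and to -0.18 with the covariate.

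The mean level of the hepatocyte markers ran from control tumors 7 and 6 through treated tumors 1, 5 and 2 to control tumor 5, the order also seen for Tdo2, Acmsd, Qprt and Aadat. All 15 markers were fitted lower in treated tumors, with a median log2 fold change of -5.36. Albumin (Alb) stood at 353, 73800 and 128200 CPM in control tumors 5, 6 and 7 and 1893, 733 and 1061 CPM in treated tumors 1, 2 and 5. Transthyretin (Ttr) had a log2 fold change of -5.35, apolipoprotein Apoa1 one of -5.12, Apoa2 one of -6.11 and Cps1, the entry enzyme of the urea cycle, one of -6.82. The 5 genes whose log2 CPM tracked Tdo2 most closely over the 6 libraries were Glyctk, Rgn, 2810459M11Rik, Iyd and Ttr, with Pearson r from 0.99976 to 0.99981. The 5 closest to Ido1 were Thy1, Sphk1, Pwwp2b, Gm28875 and Klk10, with r from 0.99852 to 0.99965. These values describe an order in which 2 libraries lie apart from 4, and they carry no p.

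When the mean log2 CPM of the 15 markers was subtracted in each library, most of the group difference in Tdo2 went with it. Relative to the markers Tdo2 lay at -1.94, -1.51 and -1.29 in control tumors 5, 6 and 7 and at -1.65, -2.35 and -2.26 in treated tumors 1, 2 and 5. That is a difference of -0.51 on the log2 scale (exact permutation p = 0.2; 0.667 after adjustment over the 10 genes). Qprt differed by 0.01 and Acmsd by -0.05 (exact permutation p = 1 each). Haao and Aadat were the genes of the 10 whose groups did not overlap on this scale, where 0.598% of all genes did not overlap, 0.52% with the treated group lower. A gene that does not follow the markers overlaps here by construction, since the marker mean itself ran from 4.64 to 12.60 log2 CPM between controls. Haao lay at -3.11, -3.55 and -3.40 in the controls and -4.17, -4.20 and -4.06 in the treated tumors, a difference of -0.79. Aadat lay at -6.22, -5.50 and -4.96 in the controls and -6.49, -6.69 and -6.54 in the treated tumors, a difference of -1.012, though it rests on 5 to 27 counts in 4 libraries. Each had the smallest exact permutation p the design allows, 0.1, and 0.5 after adjustment. For Aadat this depended on the prior count of 2. With a prior count of 0.5 its groups overlapped, with a difference of -1.04 (exact permutation p = 0.2). Haao then differed by -0.80 and stayed without overlap (exact permutation p = 0.1). Against the mean of 11 genes of hepatic amino acid catabolism in place of the markers, the groups of both genes overlapped, with differences of -0.33 for Haao (exact permutation p = 0.2) and -0.55 for Aadat (p = 0.3), and Tdo2 differed by -0.05 (p = 1).

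Control tumor 5 lay well above the other controls on this scale for Ido1, Kmo, Kynu, Ido2 and Afmid. Ido1 lay at -1.35 there, against -11.99 and -14.77 in control tumors 6 and 7 and -3.60 to -2.52 in the treated tumors. Kmo lay at -1.71 in control tumor 5, against -4.68 and -4.42 in control tumors 6 and 7 and -3.95, -3.39 and -4.05 in the treated tumors. Kynu lay at -2.20 there, against -4.37 in both other controls and -5.14 to -4.16 in the treated tumors. Ido2 and Afmid likewise had their highest values relative to the markers in control tumor 5, at -2.38 and -2.54. With the mean marker level as a covariate in edgeR, Kynu had a log2 fold change of -1.91 ± 0.32, Kmo -1.45 ± 0.24 and Haao -0.93 ± 0.20 (SE), with adjusted p of 0.355, 0.355 and 0.434. In that fit Tdo2 stood at -0.18, Ido1 at 1.14 ± 0.55 and Acmsd at 0.20, and no gene of the 10 or of the whole table was called (0%, with 1074 genes at an unadjusted p under 0.05).

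**Figure D4:**
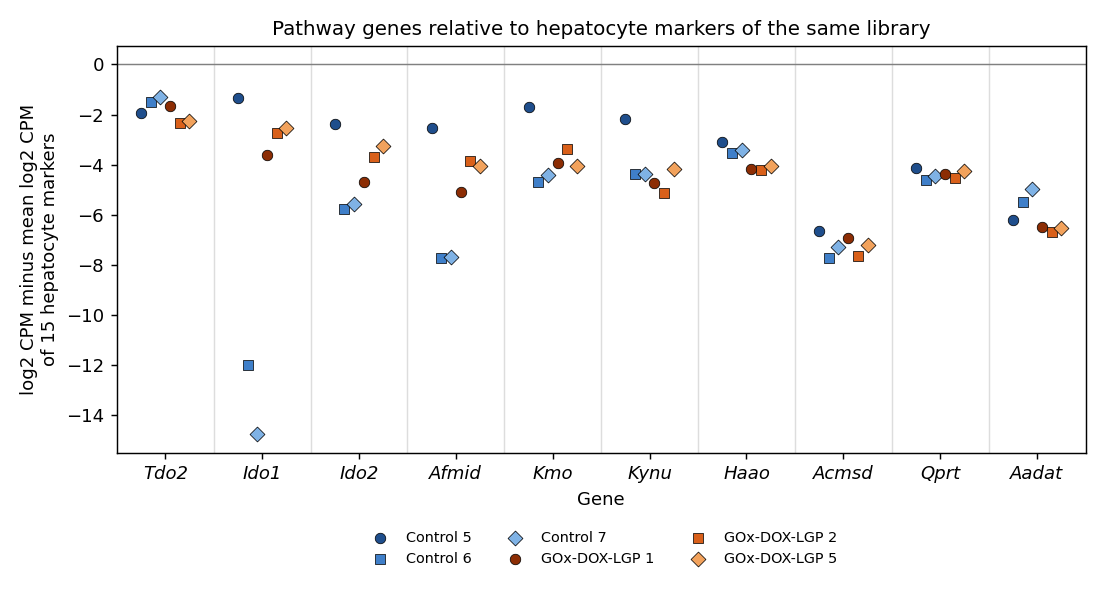
Level of each of the 10 genes relative to hepatocyte markers (vertical axis, log2 CPM of the gene less the mean log2 CPM of 15 markers in the same library) for the 6 tumor libraries. The symbols of Tdo2 lie between -2.35 and -1.29, whereas those of Ido1 reach -14.77 in control tumor 7.

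Ido1 was set beside interferon gamma and its induced genes. Of 19 genes on that list 18 were fitted higher and 1, Iigp1, lower in treated tumors, with a median log2 fold change of 1.09, and none passed edgeR's test (2 had an unadjusted p under 0.05). Interferon gamma itself (Ifng) stood at 2.11, 0.254 and 0.430 CPM in control tumors 5, 6 and 7 and 2.92, 1.42 and 3.43 CPM in treated tumors 1, 2 and 5. Control tumor 5 lay within the treated range, and control tumors 6 and 7 lay below it. The factor Irf1 had a log2 fold change of 0.63 ± 0.54 (SE), the GTPase Gbp2 1.67 and the feedback inhibitor Socs1 1.67. Without control tumors 6 and 7 the median of the list was 0.21, and without control tumor 5 edgeR called 16 of the 19 genes, beside 47.7% of all genes.

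Relative to the mean of these 19 genes, Ido1 lay at -2.48, -4.15 and -6.05 in control tumors 5, 6 and 7 and at -2.29, -2.85 and -2.31 in treated tumors 1, 2 and 5. The difference was 1.75 on the log2 scale (exact permutation p = 0.2), and this comparison was chosen after the data had been seen. Cells that could carry Ido1 or the interferon signal also varied. Summed CPM of 8 T cell markers was 86.7, 55.0 and 28.6 in the controls and 116, 126 and 175 in the treated tumors, with all 8 fitted higher and 7 without overlap between groups, against 8.87% of all genes that were higher without overlap. The median log2 fold change of the T cell markers was 1.33, and 0.93 without control tumors 6 and 7. Cd3d had a log2 fold change of 1.73 ± 0.36 (SE), Cd3g 1.53 and Cd3e 1.44. Summed CPM of 9 dendritic cell markers was 180, 74.4 and 50.2 in the controls and 141, 128 and 160 in the treated tumors, with 7 fitted higher and 2 lower. Their median was 0.57, and -0.28 without control tumors 6 and 7, with log2 fold changes of 1.48 for Ccr7, 1.37 for Ccl22 and -0.84 for Zbtb46. For 8 macrophage markers the sums were 895, 879 and 556 CPM in the controls and 827, 1949 and 1209 CPM in the treated tumors, with 7 fitted higher and 1 lower. Their median was 0.83, against 0.61 without control tumors 6 and 7 and 0.13 in limma voom. Log2 fold changes were 1.22 for Cd68, 1.08 for C1qa and 0.97 for C1qb, whereas Csf1r had 0.14 and Mertk -0.52. Mertk was lower in every treated tumor than in every control. No marker of these 3 lists was at 0 in any library, and none passed edgeR's test. The part of these cells in the Ido1 values was not tested.

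**Figure D5:**
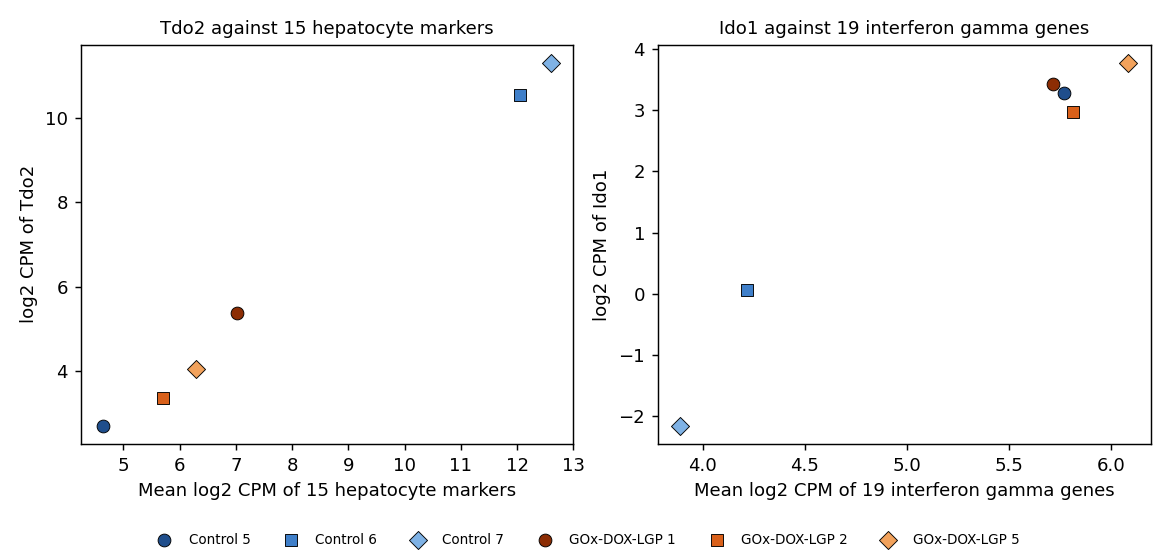
Left, log2 CPM of Tdo2 (vertical axis) against the mean log2 CPM of 15 hepatocyte markers (horizontal axis), and right, log2 CPM of Ido1 against the mean log2 CPM of 19 interferon gamma genes, with 1 symbol per tumor library. Control tumors 6 and 7 lie at the upper right on the left and at the lower left on the right, and control tumor 5 lies nearer the treated tumors in both.

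Genes further along the route were read from 4 other lists. Of 10 genes of the downstream and side branches that passed the filter, 8 were fitted lower, with a median log2 fold change of -3.80. EdgeR called none while DESeq2 called 8, beside 5.21% of the 33397 genes it tested without that filter. The median was 0.63 without control tumors 6 and 7 and -0.46 with the hepatocyte covariate. Inmt, which methylates tryptamine, had -8.07 ± 2.45, Aldh8a1, which acts on a semialdehyde after Acmsd, -6.64 ± 1.96, and Ddc, the decarboxylase of aromatic amino acids, -6.08 ± 1.83 (SE). Il4i1, an amino acid oxidase that also degrades tryptophan, did not pass the filter and stood at 0.108 to 0.937 CPM. Of 8 genes of NAD synthesis 6 were fitted lower, with a median of -1.04 and with log2 fold changes of -2.88 for Naprt, -2.496 for Nnmt and -1.65 for Nmnat1. That median was 0.09 without control tumors 6 and 7, -0.29 with library totals and -0.19 with the hepatocyte covariate. Nampt, the salvage enzyme that makes NAD from nicotinamide without tryptophan, had a log2 fold change of 0.05 ± 0.22 (SE), with 103 to 139 CPM in the controls and 117 to 132 CPM in the treated tumors.

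Of 8 genes for tryptophan transport and sensing 3 were fitted lower and 5 higher, with a median of 0.29, and 0.06 without control tumors 6 and 7. The aromatic amino acid carrier Slc16a10 had a log2 fold change of -3.38 ± 1.007 (SE) and Slc43a1 -3.48, whereas Slc7a5, the exchanger used by many dividing cells, had 0.71 ± 0.99. Of 7 genes for kynurenine receptors and targets of the aryl hydrocarbon receptor, 4 were fitted higher and 3 lower, with a median of 0.01, which was -0.46 in limma voom and 0.56 with library totals. The receptor gene Ahr stood at 59.3, 78.4 and 65.4 CPM in control tumors 5, 6 and 7 and 53.1, 111 and 40.3 CPM in treated tumors 1, 2 and 5, and its log2 fold change was 0.01 ± 0.41 (SE). Its target Cyp1a2, also a liver gene, had -6.41 ± 2.06, Gpr35 1.23 and Nqo1 -0.96. None of these genes passed edgeR's test.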

How the data were processed

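The authors deposited raw counts per gene for 3 control and 3 GOx-DOX-LGP tumor libraries without pooling, and signal values that are the same counts divided by 1 size factor per library (0.5321 to 1.3219). The study's methods name TopHat and HTSeq, whereas the submitters' processing notes list Trimmomatic 0.38, HISAT2 2.1.0 and featureCounts 2.0.0, and the genome build, annotation and strand setting are not given in the sources used here. Coordinates and exon lengths are those of GENCODE M21 (GRCm38).

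Counts were filtered with filterByExpr (15374 genes kept), scaled with TMM and tested with edgeR 4.0.16 (quasi-likelihood test, Benjamini-Hochberg adjustment over all genes kept, threshold 0.05) in R 4.3.3, with no covariate and all 6 libraries. The SE of an edgeR fit was the absolute log2 fold change divided by the square root of the quasi-likelihood F statistic. Log2 CPM used a prior count of 2. The edgeR p-values set a group difference against the variation between tumors of the same group, and cover these 6 tumors only. The alternatives were DESeq2 1.42.0, limma 3.58.1 (voom), other scalings and filters, the hepatocyte score as a covariate, and leaving out libraries. The steps were tested on simulated data. Permutation tests were exact and two-sided. Named genes were the 10 pathway genes, Ifng, Irf1, Ahr, Il4i1, Alb, Ttr and Apoa1, up to 3 largest changes per list, and the 5 genes most like Tdo2 and Ido1. Iigp1, Nampt, Csf1r, Mertk and the overlapping genes Gm20708, Tk1 and 2900009J06Rik fall outside that rule and were named after their values were seen. A further selected gene is not reported here. The genes and lists were chosen with earlier results of these data known.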

Additional observations from a re-analysis of the deposited data

How the results depend on the processing

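The number of genes called was 0 with edgeR on all libraries, 1739 with DESeq2 and 9254 with limma voom and sample quality weights, and when 1 library was left out it ranged from 0 to 7745, the latter without control tumor 5. Of the 10 pathway genes the calls were 0, 9 and 10 in the same order, and 0 to 10 on leaving out 1 library. Other scalings, filters and the hepatocyte covariate gave 0 calls. Library totals moved the median of all genes to a log2 fold change of 0.51 and upper quartile scaling to 0.19, and neither turned the sign of any of the 10. Leaving out control tumors 6 and 7 together, chosen after the data had been seen, turned the log2 fold changes of Tdo2 to 1.84, Ido2 to 0.29, Haao to 0.81, Acmsd to 1.90, Qprt to 1.64 and Aadat to 1.89, and the log2 ratio of Tdo2 to Ido1 to 1.47. That ratio ranged from -11.39 to -4.12 on leaving out 1 library. With the hepatocyte covariate Acmsd turned to 0.20.

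Relative to hepatocyte markers, leaving out control tumors 6 and 7 turned Ido1 to -1.61, Ido2 to -1.5, Afmid to -1.80 and Qprt to -0.27, and 0 genes in place of 4 then had a positive difference. Set against 11 genes of hepatic amino acid catabolism instead, Kmo turned to 0.27 and Acmsd to 0.41. Tdo2 moved from -0.51 to -0.05, Haao from -0.79 to -0.33 and Aadat from -1.012 to -0.55. With a prior count of 0.5 in place of 2, relative to hepatocyte markers, the groups of Aadat overlapped and those of Haao did not. On leaving out 1 library, differences ranged from -0.73 to 0.76 for Kmo (positive without control tumor 5), -0.30 to 0.23 for Acmsd (0.23 without control tumor 5, 0.14 without treated tumor 2) and -0.10 to 0.16 for Qprt (-0.10, -0.02 and -0.05 without control tumor 6, control tumor 7 and treated tumor 5). Per kilobase the Ido1 share became 64.4, 0.125 and 0.00854% in control tumors 5, 6 and 7 and 32.7, 53.3 and 53.7% in treated tumors 1, 2 and 5. The cause of these changes was not tested.

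No paired analysis was made, since the labels name no pairing between control and treated mice. With 3 tumors a group, 2 of them apart from the rest, how far a group difference went with liver RNA was read only from the marker-relative values and the covariate, and low counts limit Ido1, Acmsd and Aadat in single libraries.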

Other observations

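Other liver and stromal genes are given as values. All 11 genes of hepatic amino acid catabolism other than tryptophan were fitted lower in treated tumors, with a median log2 fold change of -6.62 and values of -7.19 for Tat, which breaks down tyrosine, -7.00 for Hpd and -6.89 for the urea cycle gene Otc. None passed edgeR's quasi-likelihood test and 10 had an unadjusted p under 0.05 in it. DESeq2 called all 11, beside 5.21% of the 33397 genes it tested. The median was 1.79 without control tumors 6 and 7. Of 7 genes listed as responsive to glucocorticoids, known inducers of Tdo2 and Tat, 5 were fitted higher and 2 lower. Their median was 0.29, with values of -3.82 for Zbtb16, 0.70 for Sgk1 and 0.41 for Fkbp5.

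All 6 endothelial markers were lower in every treated tumor than in every control, control tumor 5 included, against 8.31% of all genes, with a median log2 fold change of -1.73 and values of -3.29 for Stab2, a marker of liver sinusoids, -2.37 for Tek and -2.31 for Kdr. The median was -0.40 without control tumors 6 and 7. Of 5 Kupffer cell markers 4 were fitted lower, with a median of -1.99 and values of -3.39 for Clec4f, -2.42 for Cd5l and -1.99 for Vsig4, and the median was 0.57 without control tumors 6 and 7. None of the endothelial or Kupffer cell markers passed edgeR's test, while DESeq2 called 4 and 1 of them, beside 5.21% of the 33397 genes it tested.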
